A study of Microhyla fissipes with 12 samples.

Results

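Dorsal muscle of the frog Microhyla fissipes at metamorphic stage S43 was compared with dorsal muscle at the earlier stage S36, with 3 libraries at each stage. These 6 libraries, chosen by the stage in their labels, are part of a series of 12 that also covers S40 and S45. All were made from poly-A RNA of tadpoles fed spirulina powder, and no group carried a treatment or a mutation. The labels give neither the number of animals in a library nor a sex, and they do not say that replicates are separate animals, so p-values measure the spread between libraries, which may be technical in part. Levels are FPKM, fragments scaled for the length of a unigene and the size of the library, for 468578 unigenes of a catalogue assembled from reads. Of these, the 66153 that reached 1 FPKM in 3 or more of the 6 libraries were tested.

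Metamorphosis in frogs is driven by thyroid hormone, which acts through nuclear receptors that switch on some genes and switch off others. Muscle of different parts of the body takes different courses: tail muscle is lost, limb muscle is built, and the muscle of the trunk is remodelled from a larval to an adult form, with larval fibres lost and new fibres formed. In many vertebrates such a change of fibres goes with a change in the variants of myosin, troponin and other sarcomere proteins. The table gives unigenes by assembly number and pairs none with a gene name, so the unigenes below carry no names or roles, and the labelled tissue could not be checked against muscle markers. In a whole tissue, fewer cells of a type and less RNA per cell cannot be told apart.

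The S43 libraries were less alike than the S36 libraries, and 2 of them had their highest correlation within the 6 with an S36 library. Pearson's r of log2(FPKM + 1) across the tested unigenes was 0.640, 0.683 and 0.582 among the S43 libraries, against 0.709, 0.746 and 0.778 among the S36 libraries. S43 replicate 2 correlated best with S36 replicate 1, at 0.725. S43 replicate 1 correlated with S36 replicate 3 at 0.684, about as well as with S43 replicate 3. Among 24988 unigenes at an FPKM of 1 or more in all 6 libraries, the median SD over the 3 libraries was 0.693 on the log2 scale at S43 and 0.428 at S36. Libraries of the same stage correlated at 0.69 on average and libraries of different stages at 0.614. The gap of 0.076 had an exact permutation p of 0.1 (1-sided), the smallest that 2 groups of 3 allow. It was 0.0916 without S43 replicate 2 and S36 replicate 1. Without S43 replicates 1, 2 and 3 in turn it was 0.0977, 0.123 and 0.0889. Without S36 replicates 1, 2 and 3 it came down to 0.0508, 0.04 and 0.0553, with exact permutation p of 0.1, 0.3 and 0.3. In the last 2 of these, another split of the libraries thus gave as large a gap or a larger one.

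S43 replicate 2 and S36 replicate 1 shared a block of unigenes that was low in the other libraries. At an FPKM of at least 10 in both and at least 8-fold over each of the other 4 libraries (on FPKM + 1), the pair had 297 unigenes, while the 8 other pairs of an S43 and an S36 library had 6 to 29. The block held 4.8% of total FPKM in S43 replicate 2 and 2.51% in S36 replicate 1, and at most 0.156% in any other library of the series. The next highest were S36 replicate 3 at 0.156% and S40 replicate 1 at 0.132%, and the remaining libraries had at most 0.0254%. Its most abundant unigene had 0, 3821 and 12.3 FPKM in S43 replicates 1, 2 and 3, and 1780, 2.39 and 65.6 FPKM in those of S36. Of the 297, 220 were tested and none was called between the stages, each being high in 1 library of either stage. What sets the pair apart was not tested. The calls, the described unigenes that were called and some of the other results are also given without both libraries. Results that carry no such value rest on all libraries.

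**Figure D1:**
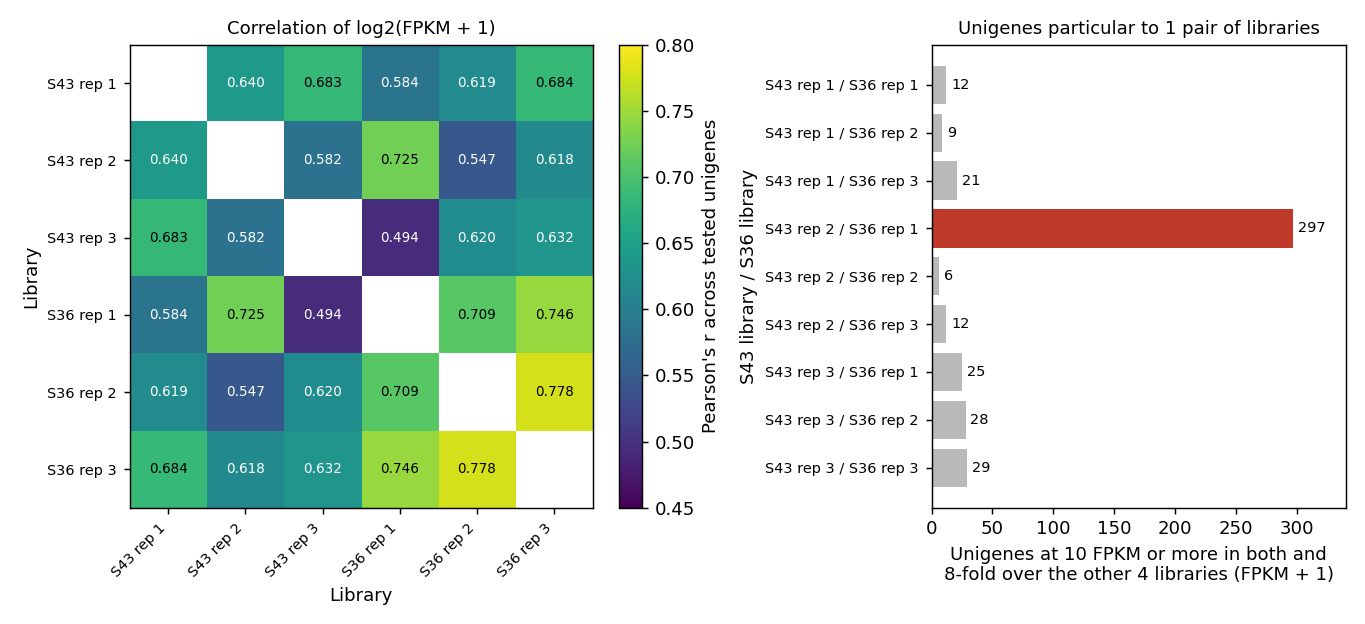
Left, Pearson's r of log2(FPKM + 1) across 66153 tested unigenes between the 6 libraries; right, the number of unigenes at 10 FPKM or more in both libraries of a pair and 8-fold over the other 4 libraries. S43 replicate 2 and S36 replicate 1 correlate at 0.725 and share 297 such unigenes, against 6 to 29 in the other pairs.

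Total FPKM was less concentrated in the 100 highest unigenes at S43. The 100 highest unigenes of each library held 37.2%, 30.6% and 26.2% of total FPKM in S43 replicates 1, 2 and 3, against 41.4%, 46.7% and 41.1% in those of S36. The mean was 31.4% ± 5.55 at S43 and 43.0% ± 3.18 at S36 (SD, n = 3 each), and every S43 library lay below every S36 library (2-sided exact permutation p = 0.1, the smallest that 3 against 3 allow). The difference of -11.7 percentage points was -12.2 without S43 replicate 2 and S36 replicate 1. For the 1000 highest unigenes the ranges overlapped, at 46.9% to 60.1% at S43 and 59.7% to 64.0% at S36 (2-sided exact permutation p = 0.2). The number of unigenes at an FPKM of 1 or more was 68062, 78159 and 135286 in the S43 libraries, against 68885, 70515 and 76510 in the S36 libraries. These ranges overlapped (2-sided exact permutation p = 0.5), and the mean difference of 21866 came down to 1140.5 without S43 replicate 3. Outside the largest cluster of the assembly, 12317, 15937 and 56543 unigenes reached 1 FPKM in S43 replicates 1, 2 and 3. Those of S36 had 8388, 9715 and 10465. Here every S43 library lay above every S36 library (2-sided exact permutation p = 0.1), with S43 replicate 3 far above the rest.

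Between the stages 1361 unigenes were called higher at S43 and 993 lower, which is 2.06% and 1.5% of the 66153 tested. A call needed a Benjamini-Hochberg adjusted p under 0.05 by limma and a difference of at least 1 in mean log2(FPKM + 1), in a fit of all 4 stages that share 1 estimate of spread. The S43 libraries all lay above the S36 libraries for 11.3% of the tested unigenes and all below for 10.7%, and every called unigene was among these. The median difference of all tested unigenes was 0.0243 on the log2 scale. Over the 24988 at 1 FPKM or more in all 6 libraries it was 0.171. Without S43 replicate 2 and S36 replicate 1, under the same filter on the 4 libraries left, limma called 0 of 47267 unigenes, with 7932 at an unadjusted p under 0.05 and a smallest adjusted p of 0.098. Over the 66153 unigenes, those called higher from all libraries had a median difference of 2.4 without the pair and 2.29 with it. For those called lower it was -2.01 both times. The 4 libraries left are among the 6 that chose these unigenes for large differences without overlap. The direction was thus fixed and the size largely so, and the medians are a description. A fit of the 6 libraries alone called 39 higher and 36 lower.

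**Figure D2:**
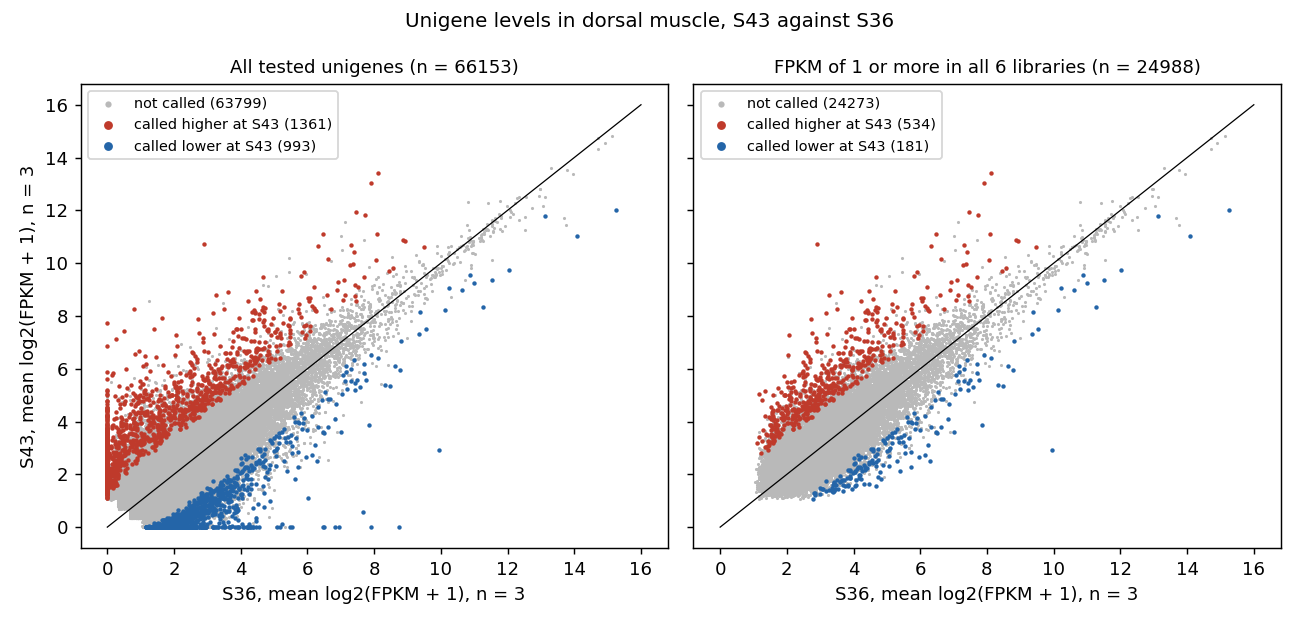
Mean log2(FPKM + 1) at S43 against that at S36, 1 point per unigene, for all 66153 tested (left) and the 24988 at 1 FPKM or more in all 6 libraries (right); the line marks equal levels. Red points are called higher at S43 (1361 left, 534 right) and blue points lower (993 and 181).

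About as many calls came from unigenes that passed the filter through 1 stage alone as from all others. These 4649 unigenes, 7.03% of the tested, reached an FPKM of 1 in all 3 libraries of 1 stage and in none of the other, so they had to differ. They gave 593 of the higher and 593 of the lower calls, 50.4% of all calls. Of the unigenes called higher, 438 were listed at 0 in every S36 library, and of those called lower 360 were listed at 0 in every S43 library. An exact 0 in an assembled catalogue can be a failed estimate, since reads can go to a near-identical unigene. Unigenes at 1 FPKM or more in all 6 libraries have no listed 0, and they did not pass through 1 stage alone. Their values can still be affected by reads that go to a near-identical unigene. Of these 24988, 534 were called higher (2.14%) and 181 lower (0.724%).

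The excess of higher calls among unigenes present in all 6 libraries was larger for big differences. Of the 534 higher, 328 had a log2 difference of 2 or more and 24 of 4 or more. Of the 181 lower, 83 had a difference of -2 or less and 1 of -4 or less. The median difference over the 24988 was 0.171, and S43 replicates 1, 2 and 3 each set against the S36 mean gave medians of 0.00871, 0.145 and 0.288, an SD of 0.14. When limma was fitted to the 24988 alone it called 654 higher and 247 lower. Leaving out S43 replicate 2 and S36 replicate 1, it called 56 and 7.

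**Figure D3:**
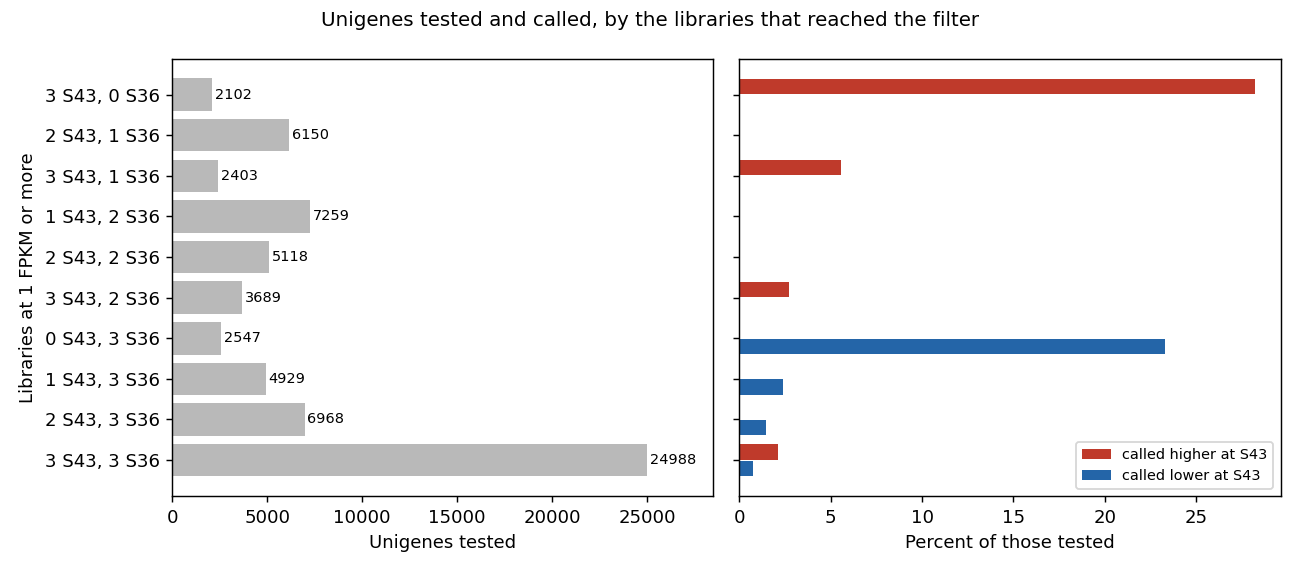
Unigenes tested (left) and the percent called higher or lower at S43 (right), by how many S43 and S36 libraries reached 1 FPKM. Unigenes at 1 FPKM in 3 S43 and 0 S36 libraries were called higher in 28.2% of cases and those in 0 S43 and 3 S36 libraries lower in 23.3%, against 2.14% and 0.724% for those in all 6.

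Cluster-199519.75953 had the largest difference of the called unigenes detected in all 6 libraries. It had 5524.47, 1153.53 and 785.62 FPKM in the S43 libraries, against 3.06, 4.47 and 18.1 FPKM in the S36 libraries. The lowest S43 library was far above the highest S36 library, although the S43 libraries spread widely among themselves. It rose by 7.83 ± 0.83 (SE) on the log2(FPKM + 1) scale (limma adjusted p = 0.0031), and its mean FPKM was 291-fold higher at S43. The libraries of S40 had 15.2, 60.7 and 53.7 FPKM, the first within the range of S36 and the others between the stages. Without S43 replicate 2 and S36 replicate 1 the difference was 7.67 ± 1.0 (limma adjusted p = 0.1).

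Cluster-199519.65947 was nearly undetected at S36. It had 415.81, 261.9 and 45.84 FPKM in the S43 libraries, against 0.2, 0.16 and 1.04 FPKM in the S36 libraries. It rose by 6.93 ± 0.73 on the log2 scale (limma adjusted p = 0.0031), or by 6.51 ± 0.94 without the pair (limma adjusted p = 0.1). The S45 libraries were lower again, at 21.0, 30.4 and 32.2 FPKM, all below every S43 library.

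Cluster-199519.119935 showed the largest change in the other direction among such unigenes. It had 23.75, 5.27 and 1.86 FPKM in the S43 libraries, against 995.88, 1775.54 and 548.22 FPKM in the S36 libraries. It fell by 7.02 on the log2 scale (SE 0.69, limma adjusted p = 0.002), and its mean FPKM was 108-fold lower at S43. The 3 libraries of S40 were still at 645.88 to 1159 FPKM, within the range of those of S36. Without the pair the difference was -6.88 ± 0.92 (limma adjusted p = 0.1).

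Cluster-199519.119301 was the most even of these 4 at the early stages. It had 35.46, 13 and 5.02 FPKM in the S43 libraries, against 245.89, 240.62 and 205.24 FPKM in the S36 libraries. It fell by 3.99 on the log2 scale (SE 0.52, limma adjusted p = 0.0075), and the mean FPKM was 12.9-fold lower. The libraries of S45 had 7.93 to 8.77 FPKM and those of S40 192.36 to 206.99 FPKM. Without the pair the difference was -3.91 ± 0.69 (limma adjusted p = 0.11). In the fit of the 6 libraries alone it was not called (limma adjusted p = 0.069).

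The 5 most abundant unigenes called higher shared a course in which S36 replicate 2 was lowest and S36 replicate 3 highest of the S36 libraries. The first had 7949, 12207 and 13519 FPKM in the S43 libraries, against 357, 34.9 and 1678 FPKM in the S36 libraries. Every S43 library was above every S36 library, and within S36 the highest was many times the lowest. The difference was 5.3 ± 1.0 on the log2 scale (limma adjusted p = 0.024), with 16.3-fold higher mean FPKM at S43. The S40 libraries, at 1793 to 2828 FPKM, were all above the S36 libraries and all below those of S43.

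The second, with 6556 to 10166 FPKM in the S43 libraries against 31.7 to 1469 FPKM in those of S36, followed the first at r = 0.999 over the 12 libraries (log2 difference 5.14 ± 0.99, limma adjusted p = 0.025). Whether unigenes this alike are separate genes or pieces of the same transcript cannot be told from the table. The third had 3265 to 4839 FPKM at S43 against 20.4 to 1083 FPKM at S36 (log2 difference 4.48 ± 1.0, limma adjusted p = 0.041), and its S36 maximum was again replicate 3. It passed in 13 of 28 alternatives. The fourth had 2968 to 4195 against 76.4 to 630.0 FPKM (4.07 ± 0.58, limma adjusted p = 0.0093) and the fifth 1844 to 2494 against 146 to 699 FPKM (3.01 ± 0.46, limma adjusted p = 0.013). Among the 100 most abundant unigenes called higher, S36 replicate 3 was the highest S36 library for 75 and S36 replicate 2 the lowest for 58. S36 replicate 3 was also the S36 library nearest to S40, with r = 0.87 to S40 replicate 1. Without S43 replicate 2 and S36 replicate 1 the 5 differences were 2.74 to 5.4, and the limma adjusted p ran from 0.11 to 0.18. In the fit of the 6 libraries alone none of the 5 was called, with limma adjusted p of 0.069 to 0.12.

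**Figure D4:**
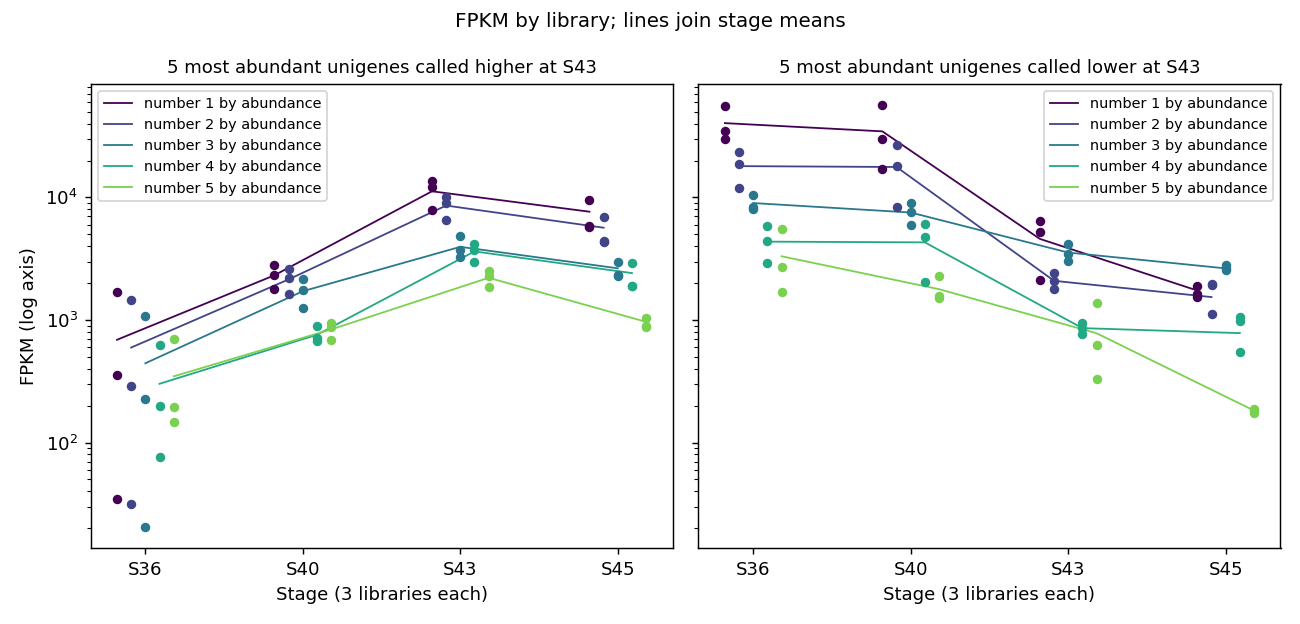
FPKM (log axis) in each library for the 5 most abundant unigenes called higher at S43 (left) and lower at S43 (right), by stage, where lines join stage means and S45 replicates 2 and 3 count as 1 sample in the mean. On the left the S36 points are spread most, from 20.4 to 1678; on the right S43 and S45 points lie below those of S36 for each unigene.

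The most abundant unigene called lower was also the highest of any unigene in S36 replicates 1 and 2. It had 6480.34, 5189.84 and 2105.32 FPKM in the S43 libraries, against 34929.67, 56223.97 and 30041.44 FPKM in the S36 libraries. No S43 library came near the lowest S36 library. It fell by 3.23 on the log2 scale (SE 0.47, limma adjusted p = 0.011), and its mean FPKM was 8.8-fold lower. At S40 the libraries ranged from 16914 to 57055 FPKM. In the fit of the S36 and S43 libraries alone this unigene fell just short of a call.

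The second had 1777 to 2423 FPKM in the S43 libraries against 11932 to 23388 FPKM in those of S36 (log2 difference -3.07 ± 0.39, limma adjusted p = 0.0075). The third, the most even of the 5 at S36, had 3055 to 4152 FPKM at S43 against 8027 to 10546 FPKM at S36 (log2 difference -1.34 ± 0.19, limma adjusted p = 0.0093). The fourth had 769 to 944 FPKM against 2900 to 5806 FPKM (-2.29 ± 0.4, limma adjusted p = 0.019) and ran with the second at r = 0.992 over the 12 libraries. The fifth had 328 to 1382 FPKM against 1684 to 5540 FPKM (-2.15 ± 0.51, limma adjusted p = 0.046), and passed in 9 of 28 alternatives. Without the pair the 5 differences were -3.48 to -1.32, and the limma adjusted p ran from 0.1 to 0.19.

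Most of the other top transcripts of this tissue did not pass. The 10 unigenes with the highest mean over the S40 and S45 samples, a ranking that used no S43 or S36 library, included the first 2 of those called lower above. These 2 make 20.0% of the 10, against 1.5% of all tested unigenes called lower, and 10 are few to set against that rate. The other 8 had log2 differences of -0.57 to 0.32 between S43 and S36, with limma adjusted p of 0.15 to 0.97. The top unigene had 33182, 34595 and 21222 FPKM in the S43 libraries, against 29912, 43062 and 35839.84 FPKM in the S36 libraries, and these ranges overlapped (log2 difference -0.31 ± 0.23, limma adjusted p = 0.5). The unigene ranked ninth had 15002, 12029 and 11060 FPKM at S43 against 8466, 11234 and 10829 FPKM at S36, a log2 difference of 0.32 ± 0.21 (limma adjusted p = 0.44).

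Calls were more frequent among abundant unigenes, counting those at 1 FPKM or more in the S40 and S45 samples. Ranked by the S40 and S45 samples, 7.82% of the 934 unigenes at 100 to 1000 FPKM were called higher at S43 and 3.0% lower. At 10 to 100 FPKM these were 3.32% and 1.52% of 13053, and at 1 to 10 FPKM 1.24% and 1.47% of 44373. Above 1000 FPKM 7 of 134 were higher (5.22%) and 8 lower (5.97%). Higher calls thus outnumbered lower ones from 10 to 1000 FPKM and not below or above, apart from the 7659 unigenes under 1 FPKM, of which 3.88% were higher and 1.4% lower.

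The unigenes called higher at S43 summed to 9.37%, 7.12% and 6.88% of total FPKM in the S43 libraries, against 0.99%, 0.844% and 1.85% in the S36 libraries. Those called lower summed to 1.71%, 1.36% and 0.823% in the S43 libraries, against 7.12%, 11.1% and 7.09% in the S36 libraries. These sums describe the calls and were fixed by how the unigenes were chosen. In the libraries that did not choose them, the higher ones summed to 4.87% to 5.65% at S45 and 1.94% to 2.7% at S40, and the lower ones to 1.08% to 1.22% at S45 and 4.69% to 9.77% at S40.

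Libraries of the other stages give a measure that the S43 minus S36 difference did not use, apart from the shared estimate of spread. Of the 534 unigenes called higher and present in all 6 libraries, 521 (97.6%) were also higher at S45 than at S40, against 72.3% of all 24988, with a median log2 difference of 1.1 against 0.383. Of the 181 called lower, 141 (77.9%) were lower at S45 than at S40, against 27.7% of all, with a median of -1.11. A difference of at least 1 in the same direction was seen for 59.4% of the higher (17.2% of all) and 50.8% of the lower (4.02% of all). S36 replicate 3 is much like S40 replicate 1 and S43 replicate 3 correlates with S45 replicate 1 at 0.8. Why these libraries are alike across stages was not tested. Without S40 replicate 1 and S45 replicate 1 the shares were 95.3% of the higher (75.6% of all) and 71.8% of the lower (24.3% of all). Calls made without S43 replicate 2 and S36 replicate 1 on the same 66153 unigenes numbered 105 higher and 54 lower. Of these, 71.4% were higher and 75.9% lower at S45 than at S40, against 67.9% and 31.2% of all tested. The share of the higher calls was thus near that of all unigenes, but 58.1% of them were higher by at least 1 (20.6% of all), with a median difference of 1.32 against 0.356.

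**Figure D5:**
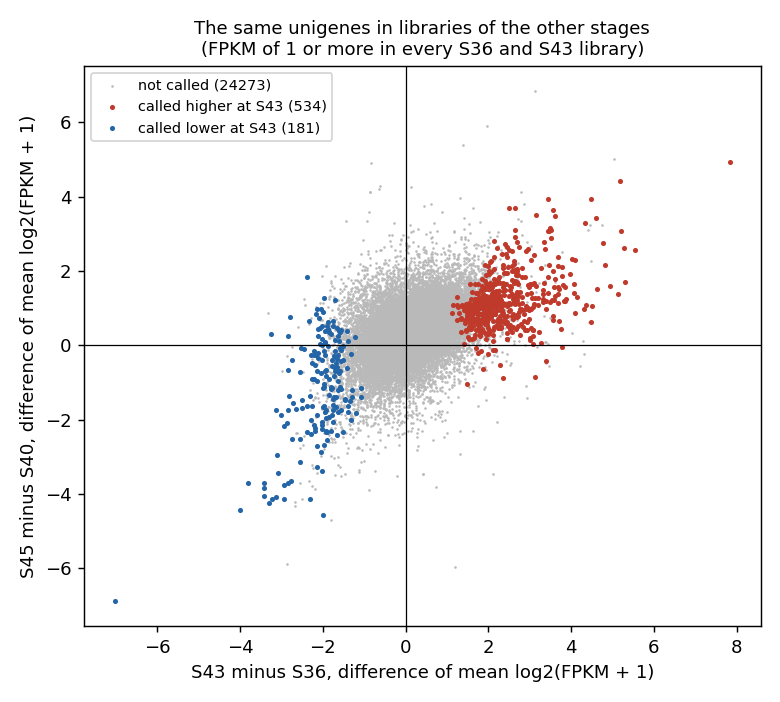
Difference in mean log2(FPKM + 1) between S45 and S40 against that between S43 and S36, for the 24988 unigenes at 1 FPKM or more in every S36 and S43 library. Of the 534 red points (called higher at S43) 521 lie above 0 on the vertical axis, and of the 181 blue points (called lower) 141 lie below it.

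At S45 against S40 the same fit called 62 unigenes higher and 93 lower, 0.0937% and 0.141% of the tested. The filter used S36 and S43 libraries only, so a unigene seen at S45 or S40 alone could not be listed. This can raise the overlap given next. Of the 62, 50 were also called higher at S43 than at S36. This is 80.6% of that list, against 2.06% of all tested, and 3.67% of the 1361. Of the 93, 89 were also called lower at S43, which is 95.7% of that list, against 1.5% of all tested, and 8.96% of the 993. Many of these passed the filter through 1 stage alone. Among unigenes at 1 FPKM or more in every S43 and S36 library, 5 of 9 called higher at S45 were also higher at S43, and 20 of 24 called lower were also lower. Of all 24988 such unigenes, 2.14% were called higher and 0.724% lower at S43. Both lists take their spread from the same residuals, so a unigene of low spread is favoured in each. Of the 50, 21 were listed at 0 in every S36 and S40 library, and of the 89, 49 had a listed 0 in each of the S43 and S45 libraries.

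Levels at S40 lay nearer to S36 than to S43 for 459 of the 534 higher (86.0%) and 179 of the 181 lower (98.9%), against 64.8% of all 24988. Levels at S45 lay nearer to S43 for 489 of the higher (91.6%) and for 99 of the lower (54.7%), against 58.7% of all. The median mean log2(FPKM + 1) of the higher was 3.08 at S36, 3.82 at S40, 5.41 at S43 and 4.99 at S45. That of the lower was 4.91, 4.8, 2.72 and 3.9 in the same order. A unigene chosen for a gap between S43 and S36 tends to have other stages inside the gap, so these counts are a description. They also include the libraries that are alike across stages. S36 replicate 3 correlates with S40 replicate 1 at 0.87, and S43 replicate 3 with S45 replicate 1 at 0.8. The counts were not made without these libraries.

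The number of calls rested on single libraries. Leaving out S43 replicate 1 gave 226 higher and 397 lower calls by limma, leaving out S43 replicate 2 gave 868 and 769, and leaving out S43 replicate 3 gave 511 and 843. Without S36 replicates 1, 2 and 3 it called 136 and 19, 102 and 7, and 464 and 60. The balance turned toward lower when S43 replicate 1 or 3 was left out, and the filter has a part in this, since with 2 libraries left a unigene at 1 FPKM in that stage alone cannot reach 3 libraries. On the same 66153 unigenes the counts were 612 and 531, 1444 and 823, and 828 and 837 without S43 replicates 1, 2 and 3, and 177 and 132, 151 and 91, and 512 and 263 without those of S36. Without S40 replicates 1, 2 and 3, which enter through the spread alone, the totals were 1339, 1506 and 1450.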

How the data were processed

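The values are FPKM as the authors deposited them, with 2 decimals, in 12 columns that each match a library title; the labels name the unit. The software for assembly, alignment and counting was not given in the sources used here. Per the labels' protocols, poly-A RNA was fragmented, primed with random hexamers and read as paired ends. No count model was used, because FPKM are not counts. Absolute depth is unknown. The peaks in the ratios of low FPKM values put depth relative to S36 replicate 1 at 1.1, 0.92 and 1.0 in the S43 libraries. For S36 replicates 2 and 3 it was 1.23 and 1.09, and any of these may be off by a factor of 2. Total FPKM was 1332754 to 1688307 at S43 and 1219979 to 1278029 at S36.

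limma 3.58.1 (R 4.3.3, with version 1.17.8 of data.table) was fitted to log2(FPKM + 1), which understates changes of low unigenes, with stage as the only term and a mean-expression trend in the variances. S45 replicates 2 and 3 were as close as repeat runs of 1 library might be (robust SD of the log2 ratio 0.0287 at 1000 FPKM and over, against 0.0553 for the next closest pair, S36 replicate 3 and S40 replicate 1) and were averaged as 1 sample, so 11 samples entered. At lower FPKM the gap was smaller, with a robust SD of 0.275 for the first pair and 0.324 for the second. S36 replicate 3 and S40 replicate 1 entered as separate samples of their stages. Stages and replicate numbers come from the titles. In simulated data on 66153 unigenes, 58437 passed the filter. The 200 changed unigenes were drawn from those at a mean of at least 5 FPKM over the 6 libraries. Of the changes, 18% were recovered at 2 log2 units and 79% at 4 log2 units, with 8 false calls. Noise was drawn separately for each library and had the same spread at every stage. The real median SD over the 24988 unigenes was 0.342 at S40 and 0.693 at S43, so these rates need not hold for the real calls. Permutation tests used scipy 1.17.1 in Python 3.11.15 (pandas 2.3.3, numpy 2.4.6) and figures matplotlib 3.10.9.

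Unigenes named by ID are those called with the largest difference, 2 in each direction, with a mean of at least 10 FPKM in the higher stage, values above 0 in all 6 libraries and no overlap. The rule first asked for a call without S36 replicate 1 and S43 replicate 2, which none met. Others are given by abundance rank. The rule and the settings were chosen with earlier results of these data known. Alternatives are in the closing section.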

Additional observations from a re-analysis of the deposited data

How the results depend on the processing

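The number of unigenes called between S43 and S36, 2354, moved with the filter and with the libraries in the fit. It was 165 with no filter, 1225 at a mean FPKM of at least 5, 802 with the filter over all 12 libraries and 901 at 1 FPKM in every S36 and S43 library. A fit of S36 and S43 alone called 75, with 10156 at an unadjusted p under 0.05; it leaves out S40, whose median SD over libraries was 0.342 against 0.693 at S43, so the number of libraries and their spread changed together. Without 1 library the count ran from 109 (S36 replicate 2) to 2241 (S45 replicate 2). On the same unigenes, leaving out S43 replicate 1 gave 1143 calls, and leaving out the S36 libraries in turn gave 309, 242 and 775. It was 223 without S36 replicate 3 and S40 replicate 1, and 632 without S43 replicate 3 and S45 replicate 1.

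Without S36 replicate 1 and S43 replicate 2 it was 0, but 159 on the same 66153 unigenes, 63 on those at 1 FPKM in all 6 libraries and 1948 with a filter of 1 FPKM in 2 of the 4 libraries. The last filter lets in unigenes seen at 1 stage alone, and a filter of 3 of 4 bars them. These settings, like the next, were chosen after seeing the data. Without other pairs of an S36 and an S43 library the count was 1, 286, 1, 0, 15, 134, 410 and 382, so 0 or nearly 0 calls were not peculiar to the 1 pair.

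The other settings of the fit (pseudocounts of 0.1 and 0.5, median-ratio scaling, quantile normalization, both other forms of eBayes, 12 separate libraries and no threshold on the difference) gave 2124 to 3450, with higher calls ahead in each.

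With a replicate block limma called 1619 in the fit of 12 separate libraries and 0 in the fit of S36 and S43 alone (8242 at an unadjusted p under 0.05). Same-numbered S43 and S36 libraries deviated from their stage means at r = -0.228, -0.395 and 0.16. S43 replicate 2 and S36 replicate 1 did so at 0.632. Deviations cancel out within a stage, so these values depend on each other and cannot decide whether same-numbered libraries belong together. A batch shared by number was not tested.

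The median difference of all tested unigenes was 0.217 at a mean FPKM of at least 5. The share of unigenes called higher that were also higher at S45 than at S40, 88.8% over all calls, was 85.7% without S40 replicate 1 and S45 replicate 1, 97.6% among those at 1 FPKM in all 6 libraries, 95.3% with both and 71.4% for calls without the pair. For those called lower it was 71.7%, 66.6%, 77.9%, 71.8% and 75.9%. The block of 297 unigenes became 90 at 100 FPKM, 614 at 4-fold and 101 with both.

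The 14 described unigenes that were called kept the call in 304 of 392 settings and lost it, in the same direction, in 88. The 8 that were not called passed in none of 224 settings, and their difference changed sign or rounded to 0 in 12. Their differences stayed within -0.7 and 0.69, under the threshold of 1 on size. The unigene ranked ninth reached a limma adjusted p as low as 0.028, so there the size threshold alone prevented a call. The others had a limma adjusted p of 0.076 or more in every setting. Depth is unknown, so the limit it sets on low unigenes cannot be given.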

Other observations

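Over all tested unigenes, but not among those at 1 FPKM in all 6 libraries, calls were more frequent outside the largest cluster of the assembly. That cluster holds 224984 of the 468578 unigenes. Of 3906 tested unigenes outside it, 4.92% were called higher at S43 and 3.3% lower, against 1.88% and 1.39% of the 62247 inside it. Only 92 of the unigenes outside reached 1 FPKM in all 6 libraries, and none of these was called. Inside the cluster 2.14% of 24896 such unigenes were called higher and 0.727% lower, and 92 are few to set against these rates. All 321 calls outside the cluster are thus of unigenes under 1 FPKM in some library. Such unigenes include those that passed the filter through 1 stage alone and had to differ.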
